A study of Homo sapiens with 18 samples.

Results

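The Sprouty and SPRED genes SPRY1, SPRY2, SPRY4, SPRED1, SPRED2 and SPRED3 were followed in 3 human acute myeloid leukaemia cell lines treated with an inhibitor of the phosphatase SHP2. The members were chosen by name, as the rows of the deposited expression table whose Ensembl gene IDs carry these 6 symbols. All 6 were found among the 40184 rows of the table. RNA was sequenced from 18 cultures in 6 groups, with 3 biological replicates in each group according to the labels. The groups were Molm-14 (genotype FLT3-ITD), MV4-11 (FLT3-ITD) and SKNO-1 (KIT N822K), each given the vehicle DMSO or 500 nM RMC-4550 for 24 h. FLT3-ITD is an internal tandem duplication in the receptor tyrosine kinase FLT3, and KIT is a related receptor. RMC-4550 is an allosteric inhibitor that holds SHP2, the product of PTPN11, in its inactive form. SKNO-1 alone was cultured with human GM-CSF, at 10 ng/mL, so its genotype, its growth factor and its other differences from the FLT3-ITD lines cannot be told apart. Each genotype rests on 1 or 2 established lines. The p-values of the main fit measure the spread between cultures of the same group, pooled over all 6 groups, not the spread between patients.

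Sprouty and SPRED proteins are inhibitors of signalling from receptor tyrosine kinases to RAS and ERK. Transcription of several of them rises when ERK is active, so they form a negative feedback loop and their transcripts are widely used as a readout of ERK output. Sprouty proteins act through adaptors and kinases of the pathway, among them GRB2 and RAF. SPRED proteins bind neurofibromin, the RAS GTPase-activating protein encoded by NF1, and bring it to the membrane where RAS resides. Germline loss of SPRED1 causes Legius syndrome, which resembles neurofibromatosis, and loss of SPRED1 has also been described in leukaemia.

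The libraries held 17434810 to 19959917 recovered reads, so that 1 read was worth between 0.0459 and 0.0641 CPM (reads scaled to a library of fixed size). The share of reads from mitochondrial genes lay between 5.07% and 7.02% in 14 libraries and between 10.5% and 15.0% in the other 4. Those 4 were replicate 2 of Molm-14 with RMC-4550, replicates 1 and 3 of MV4-11 with DMSO and replicate 1 of MV4-11 with RMC-4550. All libraries of SKNO-1 were in the lower range. Leaving these 4 out keeps 1 vehicle library of MV4-11, replicate 2, so such values for MV4-11 are given without a call, and any test that uses them assumes that this library varies like those of the other groups. The myeloid markers PTPRC, CD33, SPI1, CSF1R and LYZ were read in every library. MPO, which encodes myeloperoxidase, was high only in SKNO-1, at 315 to 437 CPM, and did not pass 4.40 CPM in the FLT3-ITD lines. RUNX1T1, the partner in the RUNX1 fusion known in SKNO-1, was at 10.9 to 14.4 CPM in that line and at 1 read or fewer in each library of the others. The markers of other cell types CD3E, CD3D, MS4A1, HBA1 and EPCAM had 2 reads or fewer in each library, whereas KRT8 (4.44 to 36.2 CPM), COL1A1 (1.38 to 10.2 CPM) and COL1A2 (0.484 to 4.55 CPM) were read at low levels.

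The genes lie on 6 chromosomes in GRCh38, with positions taken from GENCODE 29. SPRY1 (ENSG00000164056) spans chr4:123396795-123403760 on the plus strand, SPRY2 (ENSG00000136158) chr13:80335976-80340951 on the minus strand and SPRY4 (ENSG00000187678) chr5:142310427-142326455 on the minus strand. SPRED1 (ENSG00000166068) spans chr15:38252326-38357249 on the plus strand, SPRED2 (ENSG00000198369) chr2:65310851-65432637 on the minus strand and SPRED3 (ENSG00000188766) chr19:38388421-38399587 on the plus strand. Sequence upstream of an annotated start is shown for SPRY2, SPRED2 and SPRY4, which fell with the inhibitor, and for SPRED3, which rose. SPRY1 and SPRED1, which also fell in Molm-14, are not shown. The stretches of SPRY4 and SPRED3 precede starts that lie inside the span of the gene given above. The stretches are from RefSeq, GRCh38.p14, each written 5′ to 3′ on the strand of its gene and ending where an annotated exon begins. Capitals mark the letters CCGGAA, the core bound by ETS factors, several of which are phosphorylated by ERK or induced by it.
SPRY2, chr13:80341127-80341376, minus strand: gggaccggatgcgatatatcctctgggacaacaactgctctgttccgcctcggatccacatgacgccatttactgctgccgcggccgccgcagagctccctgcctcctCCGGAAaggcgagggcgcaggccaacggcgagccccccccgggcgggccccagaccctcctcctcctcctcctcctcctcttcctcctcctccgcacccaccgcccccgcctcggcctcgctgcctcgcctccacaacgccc
SPRED2, chr2:65432638-65432849, minus strand: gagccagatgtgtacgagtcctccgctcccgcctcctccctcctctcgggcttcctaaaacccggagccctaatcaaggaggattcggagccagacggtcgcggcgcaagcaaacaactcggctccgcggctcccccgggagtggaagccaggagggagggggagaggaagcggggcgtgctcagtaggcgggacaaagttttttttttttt
SPRY4, chr5:142324418-142324497, minus strand: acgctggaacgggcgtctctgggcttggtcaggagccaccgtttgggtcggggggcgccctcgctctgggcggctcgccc
SPRED3, chr19:38389541-38389611, plus strand: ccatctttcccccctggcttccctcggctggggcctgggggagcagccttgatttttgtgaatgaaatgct
Of the 250-base windows upstream of annotated starts in the RefSeq table, 11 belonged to the 6 genes. The ETS core CCGGAA, searched on both strands, was found in 2 of the 11, and 14.5% of all 35116 windows hold it. Those were the window of SPRY2 printed above, with the match 142 to 137 bases before the start, and a window of SPRY1 whose match lies 67 to 62 bases before the start at position 123398386, inside an annotated exon. The AP-1 letters TGANTCA were found in 1 window, that of the SPRED3 start at position 38389791, 60 to 54 bases before it and inside an exon of another transcript, against 6.57% of all windows. The GC box GGGCGG was found in 5 windows of 5 different members (all but SPRED2), against 42.6% of all windows. The CRE letters TGACGTCA (1.65% of all windows) and the CArG box bound by serum response factor (1.16%) were in none of the 11.

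In vehicle-treated cells the 6 genes were read at very different levels, and 2 of them were close to silent in SKNO-1. For a rough comparison between genes, levels were divided by the kilobases of all annotated exons of a gene together. The transcripts in use and the counting annotation are not known, so the shares below depend on this length. The 6 genes together stood at 34.5 ± 0.335 CPM per kb (Molm-14), 20.2 ± 5.06 (MV4-11) and 11.1 ± 0.768 (SKNO-1, mean ± SD, n = 3 each). SPRY2 held 54.2% of this sum in Molm-14, 34.5% of it in MV4-11 and 21.3% of it in SKNO-1. SPRED2 held 26.1%, 48.3% and 68.5% in the same order, and was the leading member in both MV4-11 and SKNO-1.

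**Figure D1:**
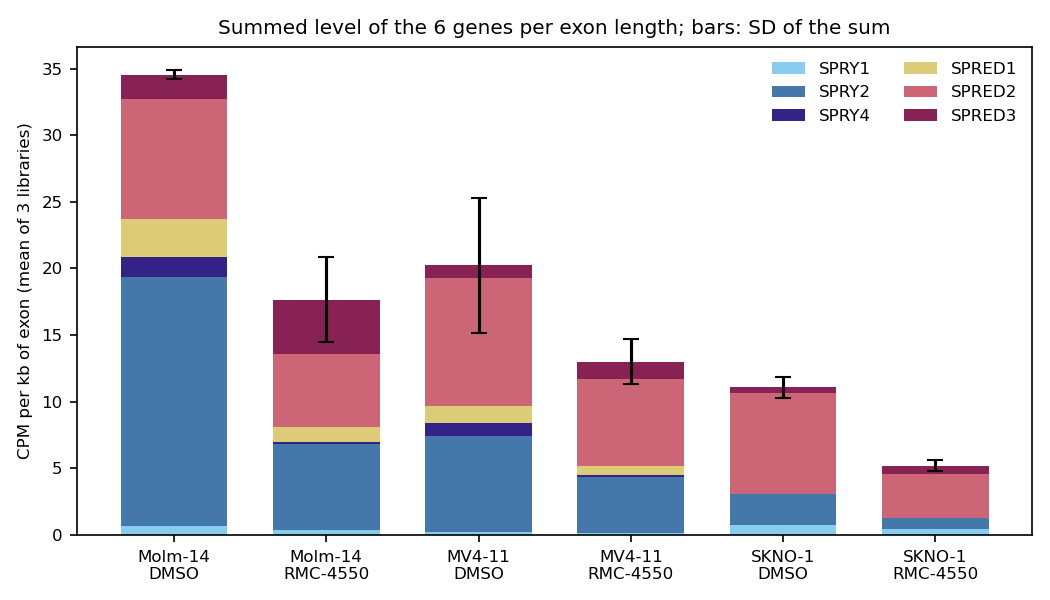
Summed level of the 6 genes in each group, in CPM per kb of exon (y axis), with bars stacked by gene as means of 3 libraries and error bars giving the SD of the sum. SPRY2 makes up 54.2% of the bar of vehicle-treated Molm-14 and SPRED2 makes up 68.5% of that of vehicle-treated SKNO-1.

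SPRED1 marked the widest gap between lines. In DMSO its libraries stood at 24.0, 22.5 and 23.3 CPM in Molm-14 and at 8.18, 14.6 and 8.44 CPM in MV4-11, while those of SKNO-1 had 0, 0 and 1 read. With 3 reads per library taken as the floor, SPRED1 was at least 167-fold higher in Molm-14 and at least 74.9-fold higher in MV4-11 than in SKNO-1. SPRY4, a Sprouty gene often read as a marker of ERK output, followed the same order, with 10.0, 11.1 and 8.13 CPM in Molm-14, 6.51, 7.93 and 4.73 CPM in MV4-11, and 4, 0 and 1 reads in SKNO-1. Both genes entered the comparisons with SKNO-1 only through the line where they were high, so a difference was bound to be called there. Between MV4-11 and Molm-14 the log2 difference was -1.21 for SPRED1 (adjusted p = 0.0115) and -0.63 for SPRY4 (95% interval -2.00 to 0.74, adjusted p = 0.424). The SPRED1 call was lost without replicate 1 of MV4-11 (-1.06, adjusted p = 0.0529) and the difference was -0.67 without the 4 libraries over 10% mitochondrial reads. The bounds cover counting error only, since reads amplified without molecular identifiers are not independent molecules.

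SPRY2 was highest in Molm-14 and lowest in SKNO-1. It stood at 56.5, 57.4 and 56.8 CPM in Molm-14, at 16.3, 33.4 and 16.0 CPM in MV4-11 and at 6.41, 7.66 and 7.44 CPM in SKNO-1, with no overlap between lines. The 2 lower MV4-11 libraries, replicates 1 and 3, are those with a mitochondrial share over 10%. The log2 differences were -1.47 for MV4-11 against Molm-14 (adjusted p = 0.000461) and -1.52 for SKNO-1 against MV4-11 (adjusted p = 0.000519). Without the 4 libraries over 10% they were -0.77 and -2.22, from 1 library of MV4-11.

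SPRED3, which like the other SPRED genes encodes a protein with an EVH1 and a Sprouty domain, had the same order at lower levels. It stood at 10.6, 9.86 and 12.03 CPM in Molm-14, at 6.73, 5.88 and 4.79 CPM in MV4-11 and at 1.98, 2.25 and 2.73 CPM in SKNO-1. MV4-11 differed from Molm-14 by -0.91 on the log2 scale (adjusted p = 0.000283), and SKNO-1 differed from MV4-11 by -1.31 (adjusted p = 1.15e-05).

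SPRY1 and SPRED2 did not follow that order. SPRY1 was at 2.40, 3.53 and 2.64 CPM in SKNO-1 and at 2.50, 2.77 and 2.56 CPM in Molm-14, and its libraries in MV4-11 were lower, at 0.753, 1.07 and 1.02 CPM. SKNO-1 and Molm-14 overlapped in SPRY1, and the log2 difference was 0.11 with a 95% interval of -0.54 to 0.75 (limma adjusted p = 0.770). SKNO-1 exceeded MV4-11 in SPRY1 by 1.56 (limma adjusted p = 0.000720). The gene entered that comparison through SKNO-1, where it was higher, so a difference was likely to be called. SPRED2 was the most even member, at 44.8, 46.8 and 47.7 CPM in Molm-14, 44.9, 55.9 and 47.3 CPM in MV4-11 and 37.1, 41.3 and 38.8 CPM in SKNO-1. The SPRED2 difference between MV4-11 and Molm-14 was 0.08 (95% interval -0.19 to 0.36, adjusted p = 0.604). That between SKNO-1 and Molm-14 was -0.25 (95% interval -0.52 to 0.02, adjusted p = 0.101), and 15 of 17 alternatives left it uncalled. In a limma fit that included the share of mitochondrial reads it was -0.27 and called (adjusted p = 0.00137), as were 79.6% of all genes. Without the 4 libraries over 10% mitochondrial reads the difference between MV4-11 and Molm-14 was 0.27, from 1 library of MV4-11. Without that library alone it was -0.0096. SKNO-1 was lower than MV4-11 in SPRED2 by a log2 difference of -0.33 (adjusted p = 0.0486), a call that was lost without replicate 2 of MV4-11 (-0.24, adjusted p = 0.145), replicate 3 of MV4-11 (-0.36) or any one of the SKNO-1 replicates 1 to 3 (-0.29, -0.37 and -0.33). Without the 4 libraries over 10% mitochondrial reads that difference was -0.52, from 1 library of MV4-11.

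Counted over all 6 genes, 4 were called between SKNO-1 and Molm-14 (65.3% of all genes tested were called there), 6 between SKNO-1 and MV4-11 (42.5%) and 4 between MV4-11 and Molm-14 (54.2%). SPRED1 and SPRY4 against SKNO-1, and SPRY1 against MV4-11 in both of its comparisons, passed the filter through the higher line, so nothing is read from these counts. The comparisons share their DMSO groups.

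With RMC-4550, all 6 genes were called in Molm-14, against 46.7% of all genes tested there. SPRY1, SPRY2, SPRY4, SPRED1 and SPRED2 fell, and SPRED3 rose. Over all genes, 25.2% were called lower and 21.5% higher. In MV4-11, where 13.9% of all genes were called, 2 of the 5 members tested (SPRY4 and SPRED2) were lower, against 8.03% of all genes, and 0 were called higher, against 5.85%. At an unadjusted p under 0.05 by limma, 4 members were lower and 1 was higher in MV4-11, against 14.8% and 10.9% of all genes. The count called there was 5 in a fit that included the share of mitochondrial reads (34.3% of all genes called), 1 in a fit of MV4-11 alone (4.55%) and 1 without replicate 2 of treated MV4-11 (9.2%). In SKNO-1, where 27.1% of all genes were called, SPRY2 and SPRED2 were lower, which is 2 of 4 tested against 16.2% of all genes, and SPRED3 was called higher, which is 1 of 4 against 10.8%. Under median-ratio scaling, 50.8% of all calls in Molm-14 were higher, against 46.0% as deposited. The shares were 51.9% against 42.2% in MV4-11 and 50.4% against 40.0% in SKNO-1. The median log2 change over the members tested was -1.18 (Molm-14), -0.71 (MV4-11) and -0.93 (SKNO-1), where the median over all genes was -0.06, -0.01 and -0.05. SPRY4 met the filter in Molm-14 and MV4-11 mainly through its vehicle libraries, so it was likely to differ, and without it 4 of 5 members were lower in Molm-14 and 1 of 4 in MV4-11. Bulk RNA cannot tell fewer expressing cells from less RNA per cell.

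The treated and vehicle libraries of a member did not overlap wherever it was tested. In Molm-14, 5 members lay wholly lower with RMC-4550 (33.1% of all genes did so) and 1 wholly higher (26.9%). In MV4-11, 4 of 5 lay wholly lower (13.5% of all genes) and 1 wholly higher (11.1%). In SKNO-1, 3 of 4 lay wholly lower (35.4%) and 1 wholly higher (26.6%).

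**Figure D2:**
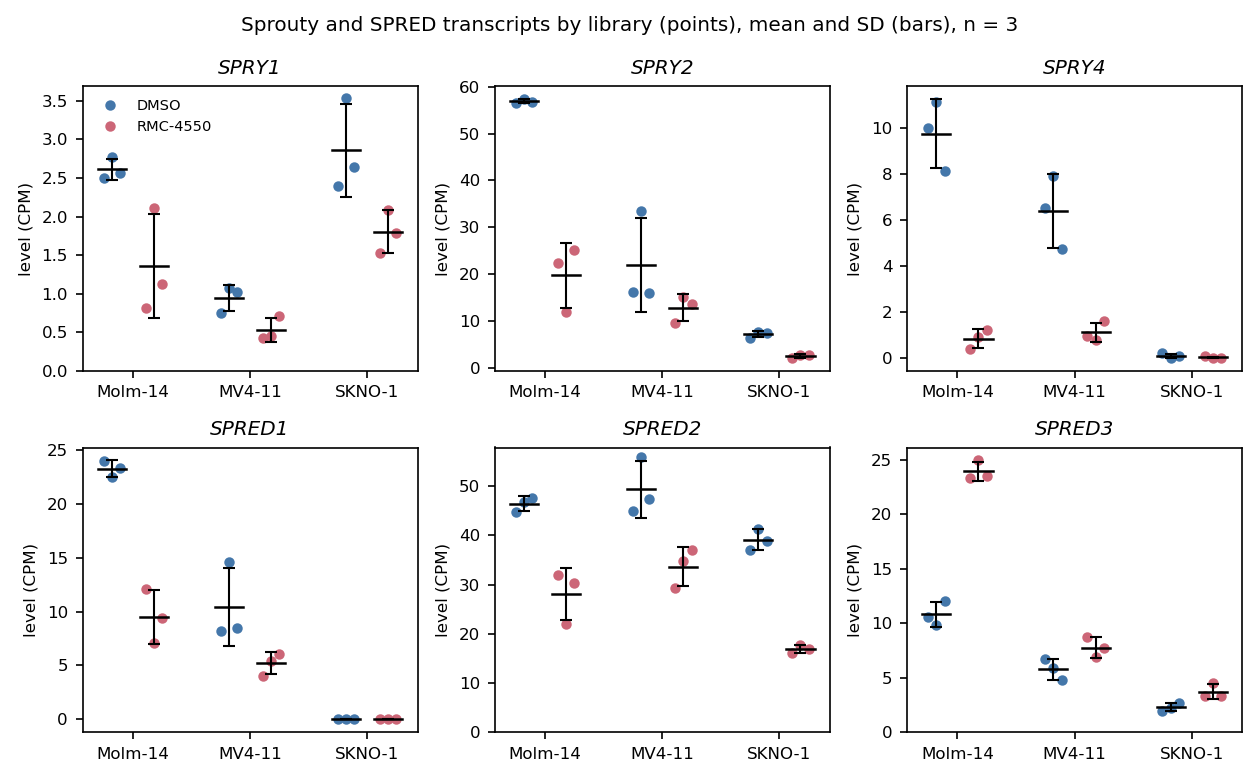
Level of each gene in CPM (y axis, one panel per gene) in the 3 lines, with a point for each library given DMSO or RMC-4550 and bars giving the mean and SD of 3 libraries. SPRY4 and SPRED1 lie at or near 0 in SKNO-1, and SPRED3 is the panel in which the RMC-4550 points lie above the DMSO points.

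SPRY4, admitted to the test mainly by its vehicle libraries, had the lowest log2 change of the members tested in both FLT3-ITD lines. It stood at 10.0, 11.1 and 8.13 CPM in vehicle-treated Molm-14 and at 0.383, 0.897 and 1.19 CPM with RMC-4550, a ratio of means of 11.9. The log2 change was -3.65 ± 0.65 (SE, adjusted p = 0.000283). In MV4-11 it went from 6.51, 7.93 and 4.73 CPM to 0.951, 0.759 and 1.57 CPM, a ratio of 5.84 and a log2 change of -2.55 ± 0.65 (SE, adjusted p = 0.0145). Every treated library had between 7 and 31 reads of SPRY4, so these low levels are counted from few reads. The MV4-11 call was lost without replicate 2 of RMC-4550 (-2.33, adjusted p = 0.0631). Without the 4 libraries over 10% mitochondrial reads the changes were -3.78 in Molm-14, which was called, and -2.83 in MV4-11, from 1 vehicle library. In SKNO-1 the gene had 4, 0 and 1 reads with DMSO and 1, 0 and 0 with RMC-4550, and a change could not be read at this depth.

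SPRY2, which inhibits RAS activation by growth factor receptors, fell in Molm-14 and in SKNO-1, from unequal starting levels. In Molm-14 it went from 56.5, 57.4 and 56.8 CPM to 22.4, 11.9 and 25.1 CPM, and in SKNO-1 from 6.41, 7.66 and 7.44 CPM to 2.08, 2.74 and 2.67 CPM. The lowest treated Molm-14 library, replicate 2, is the one with the high mitochondrial share. The ratio of means was 2.88 in Molm-14 and 2.87 in SKNO-1, with log2 changes of -1.60 ± 0.28 (SE, adjusted p = 0.000298) and -1.52 ± 0.28 (SE, adjusted p = 0.000833). Without the libraries over 10% mitochondrial reads the Molm-14 change was -1.26, still called. MV4-11 went from 16.3, 33.4 and 16.0 CPM to 9.56, 15.2 and 13.7 CPM, a log2 change of -0.71 (95% interval -1.31 to -0.11, adjusted p = 0.119), which was not called. Among MV4-11 libraries under 10% mitochondrial reads (1 with DMSO, 2 with RMC-4550) the SPRY2 change was -1.21, and among those over 10% (2 and 1) it was -0.75. Without replicate 2 of vehicle-treated MV4-11, the library at 33.4 CPM, the SPRY2 change was -0.36 (limma adjusted p = 0.317). In a limma fit that included the share of mitochondrial reads it was -1.09 (adjusted p = 4.30e-07), where 34.3% of all genes were called.

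SPRY1 was the faintest Sprouty gene that was read in every line. It went from 2.50, 2.77 and 2.56 CPM to 0.820, 2.11 and 1.13 CPM in Molm-14, and the log2 change was -1.04 ± 0.30 (SE, adjusted p = 0.0105). The call was lost without replicate 1 of treated Molm-14 (-0.74, adjusted p = 0.0537) and in a fit of Molm-14 alone (adjusted p = 0.0592). In SKNO-1 it went from 2.40, 3.53 and 2.64 CPM to 1.53, 2.09 and 1.79 CPM. The SPRY1 change there was -0.65 (95% interval -1.29 to -0.01, adjusted p = 0.129), and it was called in a fit of SKNO-1 alone (adjusted p = 0.0167) and without the 4 libraries over 10% mitochondrial reads, none of which are from SKNO-1 (adjusted p = 0.0278). In MV4-11 SPRY1 had 14 to 21 reads per library with DMSO and 8 to 14 with RMC-4550, below the filter for a test, with a log2 difference of -0.83.

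SPRED1, the Legius syndrome gene, fell in Molm-14 from 24.0, 22.5 and 23.3 CPM to 12.1, 7.05 and 9.39 CPM. Its log2 change was -1.32 ± 0.37 (SE, adjusted p = 0.00787), and -1.12 without replicate 2 of treated Molm-14 and the other libraries over 10% mitochondrial reads (adjusted p = 0.0220). MV4-11 went from 8.18, 14.6 and 8.44 CPM to 4.07, 5.42 and 6.09 CPM. No treated MV4-11 library reached the lowest vehicle library, and the log2 change of -0.97 (95% interval -1.75 to -0.19) was not called (adjusted p = 0.0984). With voom weights the same SPRED1 change in MV4-11 was called (-0.97, adjusted p = 0.00920), and in a fit that included the share of mitochondrial reads it was -1.23 (adjusted p = 0.00636). Without replicate 2 of vehicle-treated MV4-11 it was -0.70 (adjusted p = 0.214). In SKNO-1 no RMC-4550 library had a read of SPRED1, so that nothing can be said of its response there.

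SPRY2, SPRED2 and SPRED3 were the members tested in each of the 3 lines, and of these only SPRED2 was called lower in each. SPRED2 shares the neurofibromin-binding domain of SPRED1. In Molm-14 SPRED2 went from 44.8, 46.8 and 47.7 CPM to 31.9, 22.03 and 30.4 CPM, and the log2 change was -0.74 ± 0.13 (SE, adjusted p = 0.000238). In MV4-11 it went from 44.9, 55.9 and 47.3 CPM to 29.3, 34.7 and 36.9 CPM (-0.55 ± 0.13, SE, adjusted p = 0.00860). This call was lost in a fit of MV4-11 alone (adjusted p = 0.0825). In SKNO-1 it went from 37.1, 41.3 and 38.8 CPM to 16.2, 17.8 and 16.9 CPM, a ratio of means of 2.30 and a log2 change of -1.20 ± 0.13 (SE, adjusted p = 4.14e-06). Without the 4 libraries over 10% mitochondrial reads the change was -0.58 in Molm-14, which was called, and -0.64 in MV4-11, from 1 vehicle library.

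SPRED3 went the opposite way. It rose in Molm-14 from 10.6, 9.86 and 12.03 CPM to 23.3, 25.0 and 23.5 CPM, a ratio of means of 2.21 and a log2 change of 1.15 ± 0.17 (SE, adjusted p = 4.64e-05). In SKNO-1 it rose from 1.98, 2.25 and 2.73 CPM to 3.33, 4.55 and 3.36 CPM, a ratio of 1.61 and a change of 0.68 ± 0.17 (SE, adjusted p = 0.00603). MV4-11 had 6.73, 5.88 and 4.79 CPM with DMSO and 8.77, 6.88 and 7.71 CPM with RMC-4550, all treated libraries above all vehicle libraries. The SPRED3 change there was 0.43 (95% interval 0.08 to 0.78, adjusted p = 0.105) and was not called. Without the 4 libraries over 10% mitochondrial reads the changes were 1.12 in Molm-14, which was called, and 0.31 in MV4-11, from 1 vehicle library.

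**Figure D3:**
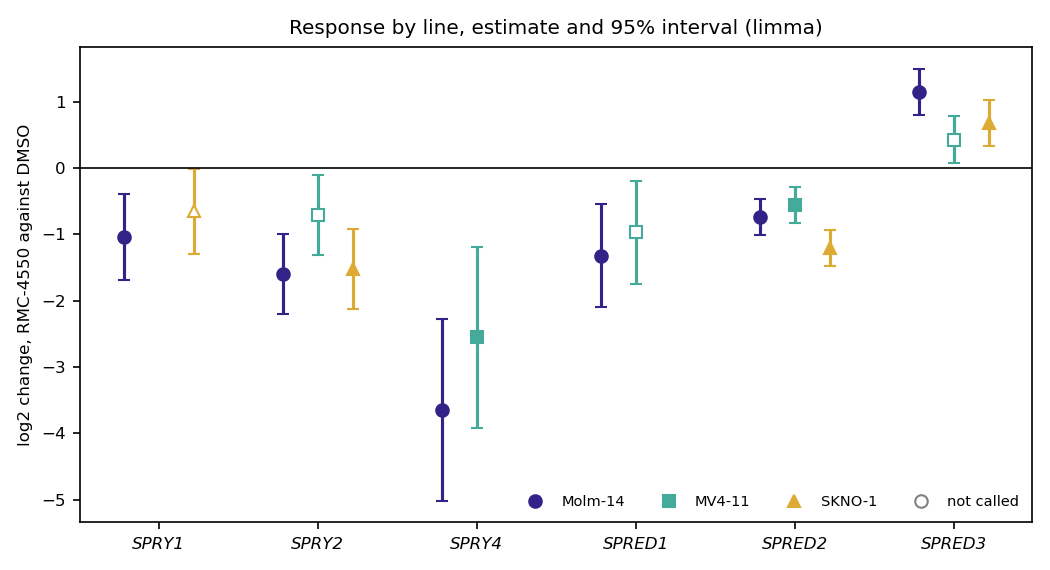
Log2 change with RMC-4550 against DMSO for each gene (y axis) in each line, with 95% intervals from limma; filled points were called at an adjusted p under 0.05 and open points were not. SPRED3 lies above 0 in each line, from 0.43 to 1.15, and the other members lie below 0 where they were tested. SPRY1 in MV4-11 and SPRY4 and SPRED1 in SKNO-1 were not tested and are not drawn.

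Differences between lines in the size of the response were tested as interaction terms. Between SKNO-1 and the mean of the FLT3-ITD lines, 0 of the 3 members tested by limma were called, against 3.8% of all genes, and 1 had an unadjusted p under 0.05, as did 14.7% of all genes. That member was SPRED2, whose response in SKNO-1 was -0.56 beyond the FLT3-ITD mean (95% interval -0.89 to -0.22, adjusted p = 0.0648). It was -0.59 without the 4 libraries over 10% mitochondrial reads, which leaves 1 vehicle library of MV4-11. It was called without replicate 2 of treated Molm-14 (-0.64), replicate 2 of vehicle-treated MV4-11 (-0.60) or replicate 1 of treated MV4-11 (-0.60). The difference was -0.37 for SPRY2 (95% interval -1.11 to 0.37, adjusted p = 0.768) and -0.11 for SPRED3 (-0.54 to 0.32, adjusted p = 0.931). Between Molm-14 and MV4-11, 1 of 5 members tested was called, against 19.5% of all genes. It was SPRED3, which rose by 0.72 more in Molm-14 (95% interval 0.22 to 1.22, adjusted p = 0.0436). The call was lost without any one replicate of vehicle-treated Molm-14, replicate 2 or 3 of treated Molm-14, replicate 1 of vehicle-treated MV4-11, or replicate 2 or 3 of treated MV4-11, where the difference lay between 0.61 and 0.80. SPRY2 (-0.89), SPRY4 (-1.10), SPRED1 (-0.35) and SPRED2 (-0.19) were not called, with adjusted p between 0.122 and 0.620. SPRY2 was called in this comparison without replicate 2 of vehicle-treated MV4-11 (-1.24, adjusted p = 0.0109). That replicate is the only vehicle library of MV4-11 under 10% mitochondrial reads. Without the 4 libraries over 10% the SPRY2 difference was -0.054, from 1 vehicle library of MV4-11.

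With the inhibitor, the mean sum of the family was lower in each line and the mean share of SPRED3 in it was higher. No test was made of the sums or the shares. The sum per exon length went from 34.5 ± 0.335 to 17.7 ± 3.21 CPM per kb in Molm-14, from 20.2 ± 5.06 to 13.0 ± 1.69 in MV4-11 and from 11.1 ± 0.768 to 5.21 ± 0.437 in SKNO-1 (mean ± SD, n = 3). The share of SPRED3 went from 5.34% to 23.8% in Molm-14, from 5.06% to 10.4% in MV4-11 and from 3.57% to 12.2% in SKNO-1. SPRY2 went from 54.2% to 35.97% in Molm-14, from 34.5% to 32.2% in MV4-11 and from 21.3% to 15.7% in SKNO-1. SPRED2 held 30.9%, 50.3% and 63.3% of the sum after treatment in the same order of lines. In MV4-11 the shares of both moved within their spread. There SPRY2 went from 34.5 ± 6.63% to 32.2 ± 3.90% and SPRED2 from 48.3 ± 6.02% to 50.3 ± 1.29% (SD, n = 3).

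Of 12 other transcripts that ERK is known to drive, 10 were tested in each line, and EPHA2 and EPHA4 were below the filter. In Molm-14, 9 were called lower (25.2% of all genes were) and 0 higher (21.5%), with a median log2 change of -0.88 (-0.06 over all genes), and at an unadjusted p under 0.05 the count higher was 0. In MV4-11, 4 were lower (8.03% of all genes) and 0 higher (5.85%), with a median of -0.85 (-0.01 over all genes), and the unadjusted count higher was 0. In SKNO-1, 7 were lower (16.2% of all genes) and 1 higher (10.8%), with a median of -1.16 (-0.05 over all genes). ETV4, an ETS transcription factor induced by ERK, changed by -3.47 (Molm-14), -1.63 (MV4-11) and -3.28 (SKNO-1), with limma adjusted p of 7.26e-08, 0.000527 and 2.20e-07. In SKNO-1 ETV4 passed the filter through its vehicle libraries (1.81 ± 0.169 CPM with DMSO, 0.169 ± 0.0536 with RMC-4550, SD, n = 3). The same held for CCND1, 1 of the 7 called lower in SKNO-1 (1.34 CPM with DMSO, 0.0616 with RMC-4550). Both were thus likely to be called there. DUSP6, the phosphatase that inactivates ERK, changed by -0.62, -0.93 and -1.30 (adjusted p 0.00764, 0.00159 and 3.69e-05), and was not called in Molm-14 under quantile normalization (-0.46, adjusted p = 0.0937). FOSL1, a subunit of AP-1, changed by -0.92, -0.79 and -1.43. Its call in MV4-11 (adjusted p = 0.0415) was lost without replicate 1 or 3 of DMSO (-0.74 and -0.60) or replicate 2 or 3 of RMC-4550 (-0.66 and -0.71). The gene called higher in SKNO-1 was DUSP5, named after its values were seen, at 0.76 (adjusted p = 0.0169), and it was called lower in Molm-14, at -0.67 (adjusted p = 0.0195).

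**Figure D4:**
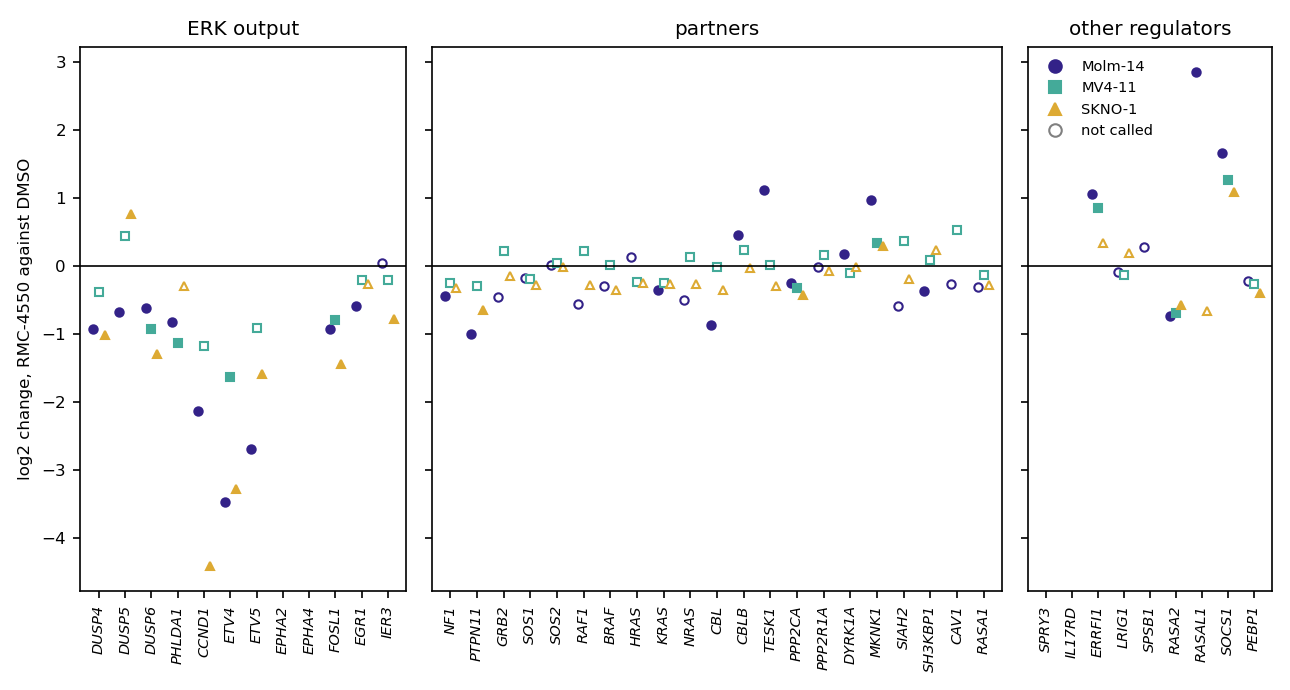
Log2 change with RMC-4550 (y axis) for the genes of the ERK output, partner and other regulator lists in the 3 lines, drawn where a gene was tested. Filled points were called and open points were not. ETV4 lies between -3.47 and -1.63, while most partner genes lie near 0.

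Of 21 genes of the proteins through which Sprouty and SPRED act, 6 were called lower and 4 higher in Molm-14, where 46.7% of all genes were called, with a median log2 change of -0.30. In MV4-11 the counts were 1 and 1 of 21 (13.9% of all genes called) with a median of 0.01, and in SKNO-1 2 and 1 of 20 (27.1%) with a median of -0.27. These counts are near or under the share called over all genes. NF1, the RAS GTPase-activating partner of the SPRED proteins, was at 92.1 ± 1.74 CPM in vehicle-treated Molm-14 and at 68.8 ± 13.4 CPM with RMC-4550 (SD, n = 3), a log2 change of -0.44 (adjusted p = 0.0290). That NF1 call was lost without any replicate of DMSO (-0.45, -0.43 and -0.44) or without replicate 2 of RMC-4550 (-0.27), which is the library with the high mitochondrial share. NF1 changed by -0.24 in MV4-11 and -0.32 in SKNO-1 (adjusted p 0.356 and 0.146). The NF1 change in SKNO-1 was called in 3 of 18 alternatives, among them a fit of SKNO-1 alone. In MV4-11 the NF1 change was -0.47 without the 4 libraries over 10% mitochondrial reads, from 1 vehicle library, and -0.065 without that library alone.

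PTPN11, which encodes the drug's target, went from 242 ± 10.9 to 125 ± 35.8 CPM in Molm-14 (SD, n = 3, limma adjusted p = 0.00135) and in MV4-11 it had a log2 change of -0.30 (adjusted p = 0.423). In SKNO-1 the PTPN11 change was -0.64 (adjusted p = 0.0367), and it was no longer called without any one of the 6 SKNO-1 libraries (-0.68 to -0.59). That call was kept in 9 of 18 alternatives, among them a fit of SKNO-1 alone, where 56% of all genes were called. Over all 18 the change lay between -0.68 and -0.54. In MV4-11 the PTPN11 change was -0.68 without the 4 libraries over 10% mitochondrial reads, from 1 vehicle library, and -0.032 without that library alone. MKNK1, a kinase that acts downstream of ERK, changed by 0.97 (Molm-14), 0.35 (MV4-11) and 0.30 (SKNO-1). The MKNK1 call in SKNO-1 (adjusted p = 0.0430) was lost without any one library of that line (0.26 to 0.32), and that in MV4-11 (adjusted p = 0.0356) without replicate 2 or 3 of DMSO or replicate 1 or 3 of RMC-4550 (0.27 to 0.38). PPP2CA, the catalytic subunit of protein phosphatase 2A, changed by -0.24, -0.32 and -0.43. Its call in Molm-14 was lost without any DMSO replicate or without replicate 1 or 3 of RMC-4550 (-0.25 to -0.20), and that in MV4-11 without replicate 1 or 3 of DMSO or replicate 2 or 3 of RMC-4550 (-0.32 to -0.27).

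Among 9 other regulators of receptor and RAS signalling, the directions were mixed. In Molm-14, 1 of 7 tested was called lower (25.2% of all genes) and 3 higher (21.5%), in MV4-11 1 of 5 lower (8.03%) and 2 higher (5.85%), and in SKNO-1 2 of 6 lower (16.2%) and 1 higher (10.8%). Their medians were 0.28, -0.13 and -0.11 in that order. RASAL1, 1 of those called higher in Molm-14, passed the filter there through its treated libraries (0.189 CPM with DMSO, 1.46 with RMC-4550). It was thus likely to be called. SOCS1, an inhibitor of JAK kinases, rose by 1.66 (Molm-14), 1.26 (MV4-11) and 1.08 (SKNO-1) (adjusted p 1.36e-06, 9.95e-05 and 0.000175). RASA2, a RAS GTPase-activating protein, fell in each line, with log2 changes of -0.73, -0.69 and -0.57 (adjusted p 8.08e-05, 0.000578 and 0.00130). SPRY3, the remaining Sprouty gene, was below the filter in each line, with a highest group mean of 0.110 CPM. These lists were chosen with earlier results of these data in view, so their counts describe the lists and support no direction.

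The genes whose levels ran most like each member were ranked by Pearson r of log2 values centred on the mean of each line. The r values are over samples that share library, treatment and depth, and the treatment itself moves them, so they are given without a test. Over 18 libraries of 3 lines, SPRY2 was closest to KPNA2 (r = 0.990), PPP5C (0.988) and PLK1 (0.986), SPRED2 to PAQR4 (0.985), CDC20 (0.983) and E2F2 (0.982), and SPRED3 to GALNS (0.962), CRTC1 (0.953) and SNAI3 (0.946). For the members that passed the filter in 2 of the lines, r is over 12 libraries. SPRY1 was closest to ALKBH2 (0.960), PLK3 (0.949) and PPP1R27 (0.948), SPRY4 to TRMT11 (0.983), GRPEL2 (0.978) and KIF23 (0.974), and SPRED1 to CDCA2 (0.990), NCAPG2 (0.988) and USP31 (0.986).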

How the data were processed

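Gene expression was measured by RNA-seq of polyadenylated RNA from 18 cultures. The authors deposited 1 table of log2 values for 40184 Ensembl gene IDs. The submitters' processing notes name FastQC, STAR, limma and GRCh38, without versions. The read counter, its annotation and its strand setting are not given in the sources used here. From the values, each deposited log2 value is the logarithm of reads plus 0.5 in CPM of a scaled library. Undoing this gave whole reads for 100% of the values tested (tolerance 0.02), and CPM were computed from them. Per kilobase values divide CPM by the union of GENCODE 29 exons.

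The log2 values, used as deposited, were fitted with limma 3.58.1 in R 4.3.3 (eBayes with a trend, two-sided, 1 coefficient per group, all 18 samples). The fit took the 16262 genes that reached 1 CPM in 3 or more samples. A gene was tested in a line, or in a contrast between lines, only where the same held within the samples concerned. The Benjamini-Hochberg adjustment ran over all genes tested in a contrast, and an adjusted p under 0.05 was called. The planned design had assumed linear values, so the logarithm it foresaw was not taken again. Replicates differed by more than sampling noise, so none was counted as a repeat.

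The named genes are all 6 members, at most 3 genes of each list called the same way in all 3 lines, NF1, PTPN11 and the 3 genes with the nearest pattern to each member. CCND1 and RASAL1 are named only because of how they passed the filter. Of the marker genes of other cell types, 2 are not reported here. Members and lists were chosen with earlier results of these data known. Alternatives covered scaling, pseudocounts of 1 and 0.1, filters, weights, the mitochondrial share, the fit and leaving out libraries. Figures were drawn with matplotlib 3.10.9.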

Additional observations from a re-analysis of the deposited data

Results flagged for a closer look

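The response of SPRED3 differed between the FLT3-ITD lines by the test of that difference itself, with a log2 change 0.72 higher in Molm-14 than in MV4-11 (limma interaction term, adjusted p = 0.0436). The call was lost in 12 of 23 alternatives, with differences of 0.61 to 0.85 and adjusted p of 0.0182 to 0.121 over all 23. All 3 treated libraries lay above all 3 vehicle libraries in each of the lines. With 3 libraries in each group, no library was tested for standing apart from its group.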

How the results depend on the processing

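A count-model test was not run because the deposited unit is log2. In Molm-14, in SKNO-1 and in the comparisons of vehicle-treated lines, the count of members called stayed within 1.5 times its value under every alternative run. In MV4-11 it was 2, and 5 with the share of mitochondrial reads as covariate, 1 with a mean of at least 5 CPM, 1 in a separate fit, 1 with a 2-fold threshold, and 1 to 2 when leaving out each library in turn. Between SKNO-1 and the FLT3-ITD mean it was 0, and 1 with quantile normalization, 1 with the covariate, 1 without the 4 libraries over 10% mitochondrial reads (which leaves 1 vehicle library of MV4-11, assumed to vary like the other groups), and 0 to 1 when leaving out each library. Between Molm-14 and MV4-11 it was 1, and 0 with no filter, 0 with the covariate, 0 without those 4 libraries, and 0 to 2 when leaving out each library. The cause was not tested. Replicate numbers were not used to pair the samples in the main fit. Same-numbered libraries correlated between -0.40 and 0.59 in their deviations from the group means, which does not settle whether they were paired. With the replicate block, the count between Molm-14 and MV4-11 was 0 and that between SKNO-1 and MV4-11 in DMSO was 5.

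Of the values of single members under alternatives, 706 kept direction and call, 28 lost the call, 25 gained it and 8 changed sign, none of these 8 called. The SPRY1 difference between SKNO-1 and Molm-14 in DMSO became -0.23 with quantile normalization and ranged from -0.054 (without replicate 2 of SKNO-1) to 0.22 when leaving out each library. The Molm-14 response minus that of MV4-11 became 0.17 for SPRED1 and 0.11 for SPRED2 with the covariate, and 0.22 and 0.064 without the 4 libraries. The SPRED2 difference between MV4-11 and Molm-14 in DMSO became -0.0096 without replicate 2 of MV4-11 and 0.15 without replicate 1, the range on leaving out each library. The SPRED3 response of SKNO-1 against the FLT3-ITD mean ranged from -0.26 to 0.014, the last without replicate 3 of vehicle-treated SKNO-1. The depth limits SPRY4 and SPRED1 in SKNO-1 and SPRY1 in MV4-11, which were read too rarely to test.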

Other observations

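Most genes near SPRED1 and SPRY4 with values in the deposited data were read in SKNO-1, where these members had few or no reads. RASGRP1 was the exception. Protein-coding neighbours without values are left out, so the genes given need not be adjacent to the member. The genes were picked after the values of the members were seen. In vehicle-treated cells, MEIS2, a homeobox gene near SPRED1, stood at 76.5 ± 1.47 CPM (Molm-14), 49.9 ± 4.19 CPM (MV4-11) and 40.8 ± 1.46 CPM (SKNO-1, SD, n = 3). FAM98B, on the other side of SPRED1, stood at 48.8 ± 3.38, 27.9 ± 7.56 and 28.4 ± 1.28 CPM in the same order. RASGRP1, an activator of RAS and the next gene beyond FAM98B, had 9 reads or fewer in each vehicle-treated library. Near SPRY4, GNPDA1 stood at 32.1 ± 1.12, 23.8 ± 3.67 and 36.4 ± 1.86 CPM and NDFIP1, an adaptor of ubiquitin ligases, at 62.9 ± 0.623, 62.9 ± 4.10 and 76.0 ± 3.47 CPM. ARHGAP26, on the other side of SPRY4, stood at 169 ± 6.75, 123 ± 10.7 and 54.6 ± 5.08 CPM. No test was made of these levels.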
